A study of Mus musculus with 24 samples.

Results

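The comparison described here is that of RNA pulled down from Homer1a-expressing brain cells of sleep-deprived and undisturbed mice, on 6 arrays titled pull-downSD and 6 titled pull-downC, 12 of the 24 arrays of the series. The sleep-deprived mice were kept awake by gentle handling for 6 h from light onset, and the control mice were left undisturbed over the same 6 h. All were males of about 12 weeks, and the labels name neither the strain nor a transgene. For both groups the labels describe perfusion with formaldehyde, homogenisation of the brain, capture on anti-FLAG beads and amplification of 10 ng of the recovered poly(A) RNA. The labels call the RNA that of Homer1a-expressing cells. The other arrays held the RNA left after the pull-down (n = 4) and total RNA of whole brains from sleep-deprived (n = 4) and undisturbed mice (n = 4). By source label the RNA left after the pull-down was from sleep-deprived (numbers 14 and 15) and control mice (13 and 16). The title of number 13 reads sleep-deprived instead. These arrays are used below as a single group, to find enriched probe sets. Whole brain is used for that too, and otherwise only to set the same genes side by side.

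Homer1a is a short, activity-induced product of the gene Homer1, whose longer products link glutamate receptors to other proteins of the postsynaptic density. In mRNA tagging, an epitope-tagged poly(A)-binding protein is made in chosen cells and carries their messenger RNA onto antibody beads, so that RNA of a scattered cell population can be read without sorting cells. Prolonged waking is known to raise immediate early genes, chaperones of the endoplasmic reticulum and, through corticosterone, glucocorticoid targets in rodent brain. A difference in such an extract can come from RNA per cell or from the number of tagged cells, and these cannot be told apart here.

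The extract was checked against markers of brain cell types. A probe set was called enriched where limma gave an adjusted p under 0.05 for pull-down above supernatant and again for pull-down above whole brain, and 3358 of 45037 probe sets were. That count depended on scaling: it was 10045 after quantile normalization and 17898 after each array was centred on its median. The enriched genes and markers given here are those of the values as deposited. Read at 1 probe set per gene, as the markers are, 2413 of 18193 genes (13.3%) were enriched. Of the measured markers, 4 of 15 for neurons in general, 5 of 13 for forebrain excitatory neurons, 5 of 14 for interneurons, 3 of 10 for striatal, 5 of 11 for cerebellar and 2 of 13 for hypothalamic neurons were enriched, and 0 of 10 for thalamic neurons. Of the astrocyte markers 1 of 15 was enriched, and of those of oligodendrocytes (12), their precursors (9), microglia (14), endothelium and pericytes (14), choroid plexus (8), blood (5) and pituitary (7) 0 were. Array intensities carry no counts, so the precision of all values below is set by the number of arrays.

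The pull-down arrays differed among themselves more than the groups did. The signal of the 18S ribosomal RNA control probe set ranged from 7.17 to 11.04 in sleep-deprived and from 6.83 to 11.14 in control arrays on the log2 scale. It averaged 8.49 ± 1.55 in sleep-deprived and 8.59 ± 1.59 in control arrays (SD, n = 6 each, exact permutation test over all divisions, two-sided, p = 0.896). The 4 arrays with the lowest numbers in their titles, sleep-deprived 1 and 3 and control 3 and 4, had the 4 highest 18S signals, from 9.65 to 11.14, against 6.83 to 8.58 in the other 8. Array medians averaged 4.91 ± 0.33 in sleep-deprived and 5.04 ± 0.44 in control arrays (n = 6 each, exact permutation p = 0.591), and control 11 stood apart with a median of 5.70, a mean correlation with the other pull-downs of 0.898 and the smallest 3′ minus 5′ difference of Gapdh, 3.29. Title numbers of 7 or lower belonged to 4 sleep-deprived and 2 control arrays, and numbers of 8 or higher to 2 sleep-deprived and 4 control arrays. The labels do not say what the number stands for. Set beside sleep deprivation as a second term in limma, the split at number 7 reached an adjusted p under 0.05 at 15653 probe sets (34.8%) and the 18S signal at 12497 (27.7%).

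**Figure D1:**
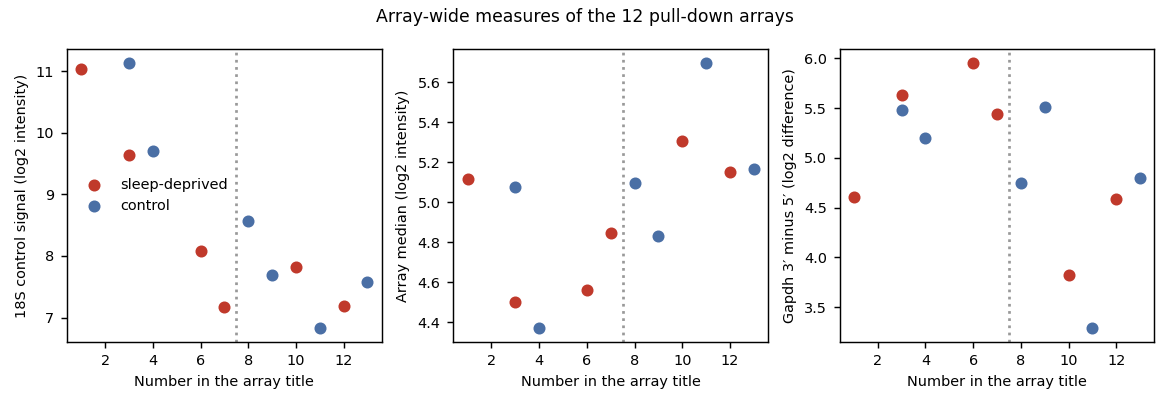
18S control signal (log2 intensity), array median (log2 intensity) and 3′ minus 5′ difference of Gapdh (log2) of each pull-down array against the number in its title; red, sleep-deprived; blue, control; the dotted line lies between numbers 7 and 8. The 18S signal is highest, 9.65 to 11.14, on the arrays numbered 4 or lower, which hold 2 of each group.

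No probe set passed the test of sleep deprivation in pull-down. With limma's moderated test and Benjamini-Hochberg adjustment, 0 of 45037 probe sets (0%) reached an adjusted p under 0.05, and the smallest adjusted p rounded to 1. At an unadjusted p under 0.05 there were 430 probe sets, 222 higher (0.493%) and 208 lower (0.462%), where chance alone would give about 2252 among independent probe sets. Among the 3358 enriched probe sets 0 (0%) passed with adjustment over those alone, with a smallest adjusted p of 0.148, and 58 higher (1.73%) and 28 lower (0.834%) had an unadjusted p under 0.05. In whole brain the same test called 21 probe sets (0.0466%). The median standard error of a difference was 0.29 in pull-down and 0.13 in whole brain. Genes are therefore given below as values, ordered by unadjusted p, and not as calls.

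The 15 genes that led the higher side were led by Egr2, a zinc-finger transcription factor of the immediate early response. Its lowest, median and highest log2 intensities were 9.03, 9.56 and 10.10 in sleep-deprived pull-downs, against 6.64, 7.17 and 9.45 in controls (probe set 1427682_a_at). Control 8, at 9.45, lay above the lowest sleep-deprived array, and the other controls lay below every sleep-deprived array. The difference was 2.04 ± 0.40 (log2, SE), a ratio of 4.12, with an unadjusted limma p of 6.43e-05. The other Egr2 probe set, 1427683_at, differed by 1.87 ± 0.41.

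Ptgs2 encodes cyclooxygenase-2, the inducible enzyme of prostaglandin synthesis. It measured 7.18, 7.51 and 7.80 (lowest, median, highest log2 intensity) in sleep-deprived pull-downs, against 5.24, 6.20 and 6.86 in controls, and the groups did not overlap. The difference was 1.35 ± 0.28 at 1417262_at and 0.76 ± 0.36 at 1417263_at, where the groups overlapped and the difference was 0.51 without sleep-deprived 1.

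Homer1, the gene whose short product defines the tagged cells, had 6 probe sets and each was higher after sleep deprivation. At 1436387_at it measured 10.74, 11.04 and 11.56 in sleep-deprived pull-downs, against 8.82, 10.09 and 10.28 in controls (lowest, median, highest log2 intensity). The groups did not overlap there, with a difference of 1.20 ± 0.27, which was 0.99 without control 11, the lowest control. The other probe sets differed by 1.57 ± 0.52 (1425671_at), 1.14 ± 0.42 (1421768_a_at), 0.76 ± 0.43 (1425710_a_at), 0.39 ± 0.26 (1437363_at) and 0.36 ± 0.24 (1439662_at), and their groups overlapped. Without control 11 the difference was 0.19 at 1437363_at and 0.21 at 1439662_at, and without sleep-deprived 1 it was 0.42 at 1425710_a_at. At 1421768_a_at it was 0.58 among arrays numbered 8 or higher. Which transcript each probe set reads was not analysed here. The level at 1425671_at moved with the array number in both groups: it was 10.60, 9.51, 9.17, 8.41, 8.44 and 7.88 on sleep-deprived arrays 1, 3, 6, 7, 10 and 12, and 9.23, 8.30, 7.42, 7.21, 5.54 and 6.92 on control arrays 3, 4, 8, 9, 11 and 13. With the 18S signal as a covariate its difference was 1.63 with an adjusted p of 0.0479 in limma, and it was 0.66 among arrays numbered 7 or lower and 1.39 among those numbered 8 or higher.

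Feedback inhibitors of MAP kinase signalling stood beside these. Spry4, a Sprouty inhibitor of receptor tyrosine kinase signalling, measured 6.54, 6.83 and 7.32 in sleep-deprived pull-downs, against 5.48, 5.92 and 6.19 in controls (log2 intensity, 1445669_at). Its groups did not overlap, and the difference was 0.98 ± 0.22. The other 3 Spry4 probe sets spanned both directions, the lowest at -0.20. Dusp4, a nuclear phosphatase of MAP kinases, measured 6.51, 7.03 and 7.54 in sleep-deprived pull-downs, against 5.42, 5.88 and 6.65 in controls, a difference of 1.12 ± 0.26. One pair of arrays overlapped, sleep-deprived 10 and control 13. The difference was 1.62 among arrays numbered 7 or lower and 0.57 among those numbered 8 or higher.

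**Figure D2:**
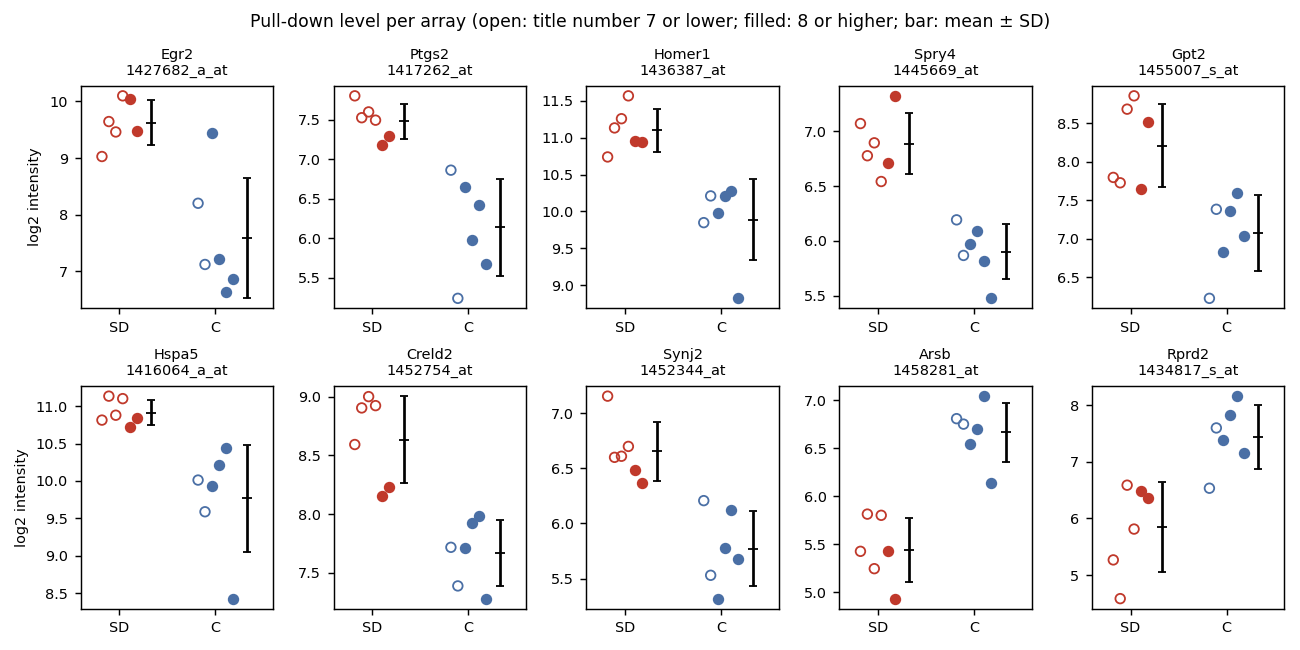
Log2 intensity of 10 of the leading genes on each pull-down array, sleep-deprived (SD, red) left of control (C, blue); open circles, title number 7 or lower; filled circles, 8 or higher; bars, mean ± SD (n = 6). The groups do not overlap for Ptgs2, Homer1, Spry4, Gpt2, Hspa5, Creld2, Synj2 and Arsb, and 1 control, number 8, lies inside the sleep-deprived range of Egr2.

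Several of the leading genes serve protein folding in the endoplasmic reticulum. Hspa5 encodes BiP, the main chaperone of that compartment and a sensor of unfolded protein. It measured 10.72, 10.86 and 11.13 in sleep-deprived pull-downs, against 8.43, 9.97 and 10.44 in controls (log2 intensity). The groups did not overlap, the difference was 1.14 ± 0.30, and it was 0.87 without control 11. The 3 probe sets for Hspa5 spanned 0.23 to 1.14. Creld2, a secreted protein induced by stress of this compartment, averaged 8.64 ± 0.37 in sleep-deprived pull-downs and 7.67 ± 0.28 in controls (SD, n = 6 each), a difference of 0.97 ± 0.24 with no overlap. The Creld2 difference was 1.30 among arrays numbered 7 or lower and 0.47 among those numbered 8 or higher. Sdf2l1, a partner of BiP, differed by 0.84 ± 0.23, also without overlap. Xbp1, a transcription factor of the unfolded protein response, measured 7.63 to 8.11 in sleep-deprived pull-downs and 5.80 to 7.59 in controls. Its difference of 0.59 ± 0.30 was 0.30 without control 11.

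The bases upstream of Hspa5 and Creld2 are shown because both hold the ER stress response element, the sequence through which factors of the unfolded protein response are known to act on chaperone genes. Each run is 250 bases that end at the annotated start of the gene, from RefSeq on GRCm38.p6, and capitals mark the match to CCAAT, then 9 bases of any kind, then CCACG, which in Creld2 lies on the opposite strand.
Hspa5, chr2:34771840-34772089, plus strand: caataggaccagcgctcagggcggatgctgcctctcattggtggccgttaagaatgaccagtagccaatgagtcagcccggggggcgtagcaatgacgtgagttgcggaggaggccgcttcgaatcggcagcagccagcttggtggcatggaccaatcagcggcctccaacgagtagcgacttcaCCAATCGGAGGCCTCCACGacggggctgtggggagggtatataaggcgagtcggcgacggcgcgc
Creld2, chr15:88819396-88819645, plus strand: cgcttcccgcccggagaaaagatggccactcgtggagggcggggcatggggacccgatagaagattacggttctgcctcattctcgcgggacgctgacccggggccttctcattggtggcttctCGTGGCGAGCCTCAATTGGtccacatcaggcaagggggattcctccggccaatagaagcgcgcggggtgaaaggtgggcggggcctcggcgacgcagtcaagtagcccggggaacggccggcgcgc
The match began 65 bases before the start of Hspa5 and 126 before that of Creld2. Searched on both strands, this motif was in 37 of 32851 such windows (0.113%), which belong to 35 of 27025 genes. It was in 7 of the 22 genes of the endoplasmic reticulum list that had a window, in 2 of 12 leading higher genes and in 0 of 9 leading lower genes. The cAMP response element TGACGTCA, which reads the same on both strands, was in 508 windows (1.55%), which belong to 478 of 27025 genes. It was in 1 of 12 leading higher genes, Dio2, and in 1 of 9 leading lower genes, Habp4. A match here describes letters and not a bound site.

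Gpt2, a mitochondrial alanine aminotransferase, measured 7.65, 8.16 and 8.86 in sleep-deprived pull-downs, against 6.22, 7.20 and 7.59 in controls (log2 intensity), with a difference of 1.14 ± 0.30. Its 4 probe sets were all higher, the lowest by 0.029. Pfkfb3, which makes the activator of glycolytic phosphofructokinase, differed by 0.80 ± 0.22 (0.52 among arrays numbered 8 or higher), and Dio2, the deiodinase that activates thyroid hormone, by 0.94 ± 0.25. Synj2, a phosphoinositide phosphatase of vesicle traffic, measured 6.37, 6.61 and 7.16 in sleep-deprived pull-downs, against 5.32, 5.73 and 6.21 in controls. Gpt2, Pfkfb3 and Synj2 did not overlap between groups, and Dio2 did. Among transcription factors, Fosl2, a component of AP-1, differed by 1.22 ± 0.27 and Bcl6, a repressor, by 0.89 ± 0.24. Ccn4, a secreted matricellular protein, differed by 0.91 ± 0.25 with no overlap. These values are those of the leading probe set of each gene, and other probe sets differed less. The lowest was 0.063 for Fosl2, 0.093 for Ccn4, 0.17 for Pfkfb3, 0.25 for Dio2 and 0.54 for Bcl6. Of 6 probe sets for Synj2 5 were higher, and the lowest differed by -0.17.

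The 15 leading lower genes were led by Arsb, which encodes arylsulfatase B, a lysosomal enzyme that degrades chondroitin and dermatan sulfate. It measured 4.94, 5.43 and 5.82 in sleep-deprived pull-downs, against 6.14, 6.73 and 7.05 in controls (log2 intensity, 1458281_at), with no overlap and a difference of -1.22 ± 0.24, with an unadjusted limma p of 6.75e-05. Rprd2, which binds the tail of RNA polymerase II, measured 4.58, 6.08 and 6.59 in sleep-deprived pull-downs, against 6.53, 7.49 and 8.16 in controls (1434817_s_at). The difference was -1.59 ± 0.35, and 1 sleep-deprived array passed the lowest control. Of 8 probe sets for Rprd2 only 3 were lower, with differences from -1.59 to 0.31, and of 3 for Arsb 2 were lower.

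Probe sets of one gene disagreed in sign more often on the lower side. Of the 15 leading higher genes 12 had several probe sets, and in 10 of these all were higher. Of the 15 leading lower genes 13 had several, and in 4 of these all were lower. Both counts take the sign alone. Some agreeing probe sets differed little, at 0.029 for Gpt2, 0.063 for Fosl2 and -0.0087 for Eif4ebp1. The mean level of the leading higher probe sets was between 6.01 and 10.5, none of them below the median probe set at 4.99, and that of the lower ones between 3.83 and 8.82, with 4 below it. Mapre1, a protein of growing microtubule ends, is an example: its leading probe set differed by -1.25 ± 0.36, and its 5 probe sets spanned -1.25 to 0.14. The Mapre1 difference was -1.78 among arrays numbered 7 or lower and -0.30 among those numbered 8 or higher. Tsc1, a brake on mTOR signalling, differed by -1.10 ± 0.35 at 1 of 3 probe sets, and the others were higher. Among arrays numbered 8 or higher it differed by -0.54. Eif4ebp1, a repressor of cap-dependent translation that mTOR inactivates, differed by -0.83 ± 0.25, and by -0.52 among arrays numbered 8 or higher. Its 3 probe sets spanned -0.83 to -0.0087. Fabp4, a fatty acid carrier, differed by -0.88 ± 0.26 without overlap, and by -0.51 among arrays numbered 8 or higher. Only 2 of its 4 probe sets were lower. Fa2h, which makes the hydroxylated fatty acids of myelin lipids, differed by -0.84 ± 0.25. Smad2, a transducer of TGF-beta signals, differed by -0.73 ± 0.24. The other leading lower genes, Rps6, Trdn, Habp4, Osgepl1, Spata24, 0610040B10Rik and A230051N06Rik, differed by -1.12 to -0.81.

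Probe sets with no gene symbol or several were not among the leading genes. Of these, 1457137_at had the third smallest unadjusted p over all probe sets, with no symbol, a difference of -1.23 ± 0.25 and no overlap between groups, and 1447223_at, also with none, differed by -1.19 ± 0.31. Both were called in whole brain, at -0.78 and -0.81 (limma, adjusted p = 0.0363 each). The probe set 1422660_at, whose symbols are Rbm3 and its pseudogene Rbm3-ps, had an unadjusted limma p of 0.000273. It differed by -1.34 ± 0.30 in pull-down and by -0.68 in whole brain (limma, adjusted p = 0.121).

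Both sets of leading genes kept their direction when the arrays were divided by title number. Among arrays numbered 7 or lower (4 sleep-deprived, 2 control) the 15 higher genes differed by 0.79 to 1.90, and among those numbered 8 or higher (2 sleep-deprived, 4 control) by 0.47 to 2.22. The 15 lower genes differed by -1.78 to -0.60 among the first and by -1.43 to -0.30 among the second. Without sleep-deprived 1 and control 3, the arrays of highest 18S signal, the medians were 1.00 and -0.85, against 0.98 and -0.91 over all 12. The genes were chosen on these arrays, so their direction in parts of them is a description.

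Few probe sets separated the groups fully. Over all probe sets 18 were higher (0.04%) and 8 lower (0.0178%) on every sleep-deprived array than on every control, and over 1 probe set per gene 11 (0.0605%) and 3 (0.0165%) were. In whole brain 2705 did not overlap in either direction, where groups of 4 separate more easily. Of the 18, which all had 1 gene symbol, 10 belong to the leading genes. The other 8, named after their values were seen, were Lonrf3 (0.83 ± 0.23), Mkks (0.73 ± 0.22), Cys1 (0.85 ± 0.27), Dhx29 (0.75 ± 0.24), Srxn1 (0.50 ± 0.21), 2810032G03Rik (0.50 ± 0.24), Xbp1 and a second, low Dnajc3 probe set (1449373_at, 0.57 ± 0.22). Cys1 differed by 1.37 among arrays numbered 7 or lower and by 0.27 among those numbered 8 or higher. Srxn1 restores oxidised peroxiredoxins, Dhx29 helps ribosomes scan structured leaders, and Mkks and Cys1 belong to cilia. Of the 8 lower ones, 7 had 1 symbol: Arsb, 0610040B10Rik and Fabp4, and, named after their values were seen, Pnma1 (-0.63 ± 0.21), Tmod2 (-0.63 ± 0.24), Trim36 (-0.57 ± 0.22) and Ubr3 (-0.48 ± 0.21). Tmod2 caps the slow end of actin filaments in neurons, and Trim36 and Ubr3 are ubiquitin ligases.

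Whole brain gave most leading genes the same direction, on other animals. The 15 higher genes had a median difference of 0.98 in pull-down, against 0.48 in whole brain, where 13 of them were also higher and 3 were called: Egr2 (1.14 ± 0.16, limma, adjusted p = 0.025), Homer1 (0.85 ± 0.13, adjusted p = 0.0406) and Dio2 (1.05 ± 0.13, adjusted p = 0.014). The 15 lower genes had a median of -0.91 in pull-down, against -0.24 in whole brain, where 14 were also lower and 0 were called. Of all 18193 genes 6732 (37.0%) were higher in whole brain and 11461 (63.0%) were not. The leading genes were picked for their size in pull-down, so a smaller value elsewhere is built into the choice. The test of the difference between extracts, a limma interaction, called 0 of 45037 probe sets (0%), with 152 at an unadjusted p under 0.05. Among the higher genes that count held Synj2 (-0.04 ± 0.14 in whole brain), Dusp4 (0.13 ± 0.12), Ccn4 (-0.02 ± 0.13), Spry4 (0.17 ± 0.13) and Ptgs2 (0.54 ± 0.15). The unadjusted interaction p was 0.00503 for Synj2 and 0.00666 for Dusp4. Among the lower genes it held 6: Rprd2, Arsb, Mapre1, Fabp4, Fa2h and Osgepl1.

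**Figure D3:**
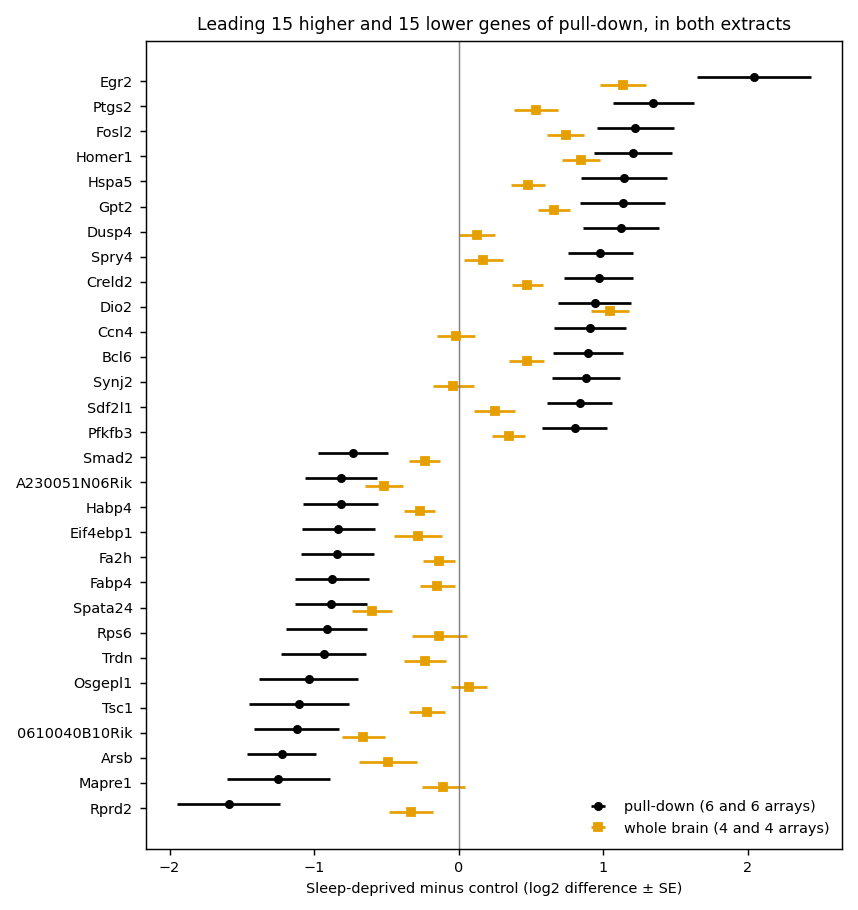
Sleep-deprived minus control difference (log2, ± SE) of the 15 leading higher and 15 leading lower genes, chosen on pull-down, in pull-down (black, 6 and 6 arrays) and in whole brain (orange, 4 and 4 arrays). Whole-brain points lie nearer 0 for most genes. On the higher side those of Synj2, Ccn4, Dusp4 and Spry4 are at -0.04 to 0.17. On the lower side those of Mapre1, Fabp4, Fa2h, Rps6 and Osgepl1 are at -0.15 to 0.07.

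Gene lists were read at 1 probe set per gene, and several share members: Dusp1, Dusp4, Dusp5 and Dusp6 are in both the immediate early and the MAP kinase feedback list. Of all 18193 genes, at the probe set of highest mean level, 7990 (43.9%) were higher, with a median of -0.03, and 127 higher (0.698%) and 75 lower (0.412%) had an unadjusted p under 0.05. Of 43 immediate early genes 34 were higher, with a median of 0.46, and 17 had an unadjusted p under 0.05. Of 20 glucocorticoid-induced genes 18 were higher (median 0.42), and 3 were under 0.05: Tsc22d3 (0.65 ± 0.26), Plin4 (0.83 ± 0.37) and Mt2 (0.66 ± 0.31). In whole brain Plin4 differed by 1.48 ± 0.12 (limma, adjusted p = 0.00032), Tsc22d3 by 0.89 ± 0.12 (adjusted p = 0.02) and Mt2 by 0.65 ± 0.11 (adjusted p = 0.0733). In pull-down Plin4 differed by 1.84 among arrays numbered 7 or lower and by 0.038 among those numbered 8 or higher. Without the 4 arrays numbered 4 or lower Plin4 differed by 0.23, and without sleep-deprived 1 Mt2 differed by 0.44. Of 25 genes of the endoplasmic reticulum and its stress response 21 were higher (median 0.34), with 6 under 0.05. Of these 25, 4 were higher without overlap between groups, against 0.0605% of all genes. Pdia3, a disulfide isomerase of that list, differed by 0.93 ± 0.33, and by 0.49 among numbers 8 or higher. Of 17 MAP kinase feedback genes 14 were higher (median 0.32), with 5 under 0.05, among them Dusp1 (0.73 ± 0.30) and Dusp6 (0.67 ± 0.29). Dusp6 differed by 0.14 among arrays numbered 7 or lower and by 1.02 among those numbered 8 or higher. Of 20 cytosolic heat shock genes 17 were higher (median 0.18), with 4 under 0.05. These were Hspa1b (0.84 ± 0.26), Chordc1 (0.82 ± 0.29), Hsph1 (0.59 ± 0.26) and Dnajb1 (0.62 ± 0.29), and without control 11 Hsph1 differed by 0.37 and Dnajb1 by 0.38. With the title number as a term, the medians were 0.48 for immediate early, 0.40 for glucocorticoid-induced, 0.33 for endoplasmic reticulum, 0.26 for MAP kinase feedback and 0.12 for heat shock genes, against 0.06 for all genes.

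Of 21 circadian clock genes 15 were higher, with a median of 0.17 that was 0.026 with the title number as a term. Per2, a repressor of the clock, was the member under 0.05, at 0.92 ± 0.40, and differed by 0.49 among arrays numbered 7 or lower and by 0.61 among those numbered 8 or higher. Of 20 neuropeptide genes 13 were higher. Crh, corticotropin-releasing hormone, measured 10.40, 10.94 and 11.22 in sleep-deprived pull-downs, against 9.60, 10.31 and 10.70 in controls, a difference of 0.63 ± 0.25 with overlap, and Nts, neurotensin, differed by 0.63 ± 0.28. The Nts difference was 1.34 among arrays numbered 7 or lower and 0.34 among those numbered 8 or higher. Nptx2, a pentraxin that clusters AMPA receptors, differed by 0.79 ± 0.25 at 1420720_at and by 0.03 ± 0.23 at 1449960_at, whose levels were near 3.6 in both groups. Cirbp, an RNA-binding protein induced by cold and known to fall with waking in mouse brain, measured 5.20, 5.77 and 6.42 in sleep-deprived pull-downs, against 6.11, 6.44 and 7.64 in controls, a difference of -0.83 ± 0.30 with overlap. In whole brain it differed by -0.87 ± 0.16 (adjusted p = 0.0935). Of 3 genes of cold-inducible RNA-binding proteins, Cirbp among them, 0 were higher in pull-down, against 43.9% of all genes, with a median of -0.15. Creb5, of the CREB family, differed by -0.64 ± 0.30, and by -0.31 among numbers 8 or higher.

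In 5 housekeeping lists most members were higher, against 43.9% of all genes, and the medians were smaller with the title number as a term. The lists lay at higher levels, with medians over sleep-deprived arrays of 7.67 to 10.41, against 6.18 for all genes. Genes of like level were not compared. Of 32 proteasome genes 29 were higher, with a median of 0.14. It was 0.09 after quantile normalization over the 12 arrays, against 0.0087 for all genes. With the title number as a term it was -0.0067, against 0.06 for all genes. The members of smallest p were Psmd12 (0.49 ± 0.28, and 0.15 among numbers 8 or higher) and Psmc6 (0.35 ± 0.26). Of 50 genes of oxidative phosphorylation 38 were higher (median 0.11, and 0.05 after quantile normalization), with Ndufa8 at 0.53 ± 0.29 and Sdhb at 0.45 ± 0.29. Of 19 tRNA synthetase genes 15 were higher (median 0.18), with Rars at 0.32 ± 0.32 and Mars1 at 0.28 ± 0.28, and of 26 chromatin regulators 21 (median 0.12), with Smarca2 at 0.29 ± 0.28 and Chd4 at 0.37 ± 0.40. Of 32 cytosolic ribosomal protein genes 24 were higher (median 0.13), with Rpl6 at 0.41 ± 0.25 and Rps25 at 1.04 ± 0.47. Rps25 was the 1 member of these lists with an unadjusted p under 0.05, where 0.698% of all genes were higher and 0.412% lower. With the title number as a term the medians were 0.034 for oxidative phosphorylation, 0.016 for tRNA synthetases, 0.032 for chromatin regulators and 0.07 for ribosomal proteins. Single arrays moved the members named: without control 11 Psmc6 differed by 0.15, Rars by 0.082 and Smarca2 by 0.071, without control 8 Mars1 by 0.11 and Rps25 by 0.67, and without sleep-deprived 1 Chd4 by 0.11 and Sdhb by 0.27. Centring each array on its median raised the median of all genes to 0.09 and the number higher to 12545.

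In 4 lists of synapse and channel genes 0 members had an unadjusted p under 0.05 at the probe set of highest mean level. Of all genes 0.698% were higher and 0.412% lower at that p. The lists read Homer1 at 1439662_at (0.36 ± 0.24), and at 1436387_at, its leading probe set, it differed by 1.20 ± 0.27. Of 22 postsynaptic scaffold genes 16 were higher (median 0.20, and 0.017 with the title number as a term), with Baiap2 at 0.50 ± 0.25 and Dlg4, which encodes PSD-95, at -0.45 ± 0.28. Among arrays numbered 8 or higher Baiap2 differed by 0.053 and Dlg4 by 0.019. Of 18 AMPA, NMDA and kainate receptor subunits 11 were higher (median 0.03, and -0.09 with the term), with Grin2c at 0.21 ± 0.27 and Grik4 at -0.20 ± 0.25. Of 28 potassium channel genes 18 were higher (median 0.07, and -0.03 with the term), with Kcnc2 at 0.33 ± 0.26 and Kcnk1 at 0.26 ± 0.21. Of 27 genes of vesicle release 17 were higher (median 0.07, and -0.19 with the term), with Sypl at -0.19 ± 0.25 and Amph at 0.18 ± 0.25. Without control 11 Kcnc2 differed by 0.11, Grik4 by -0.064, Sypl by -0.33 and Amph by 0.052, and without sleep-deprived 1 Grin2c by 0.0027. Jph3, a junctophilin that ties the plasma membrane to intracellular calcium stores, differed by 0.50 ± 0.23 at 1443724_at and by 0.27 ± 0.49 at 1418161_at. Pabpc1, the poly(A)-binding protein used in mRNA tagging, differed by 0.05 ± 0.36 at 1418883_a_at and by -0.15 ± 0.41 at 1453840_at. Of 19 genes of cholesterol synthesis 7 were higher (36.8%, against 43.9% of all genes), with a median of -0.08, against -0.03 for all genes. Insig1 was at -0.27 ± 0.21 and Ebp at -0.44 ± 0.28, which was 0.094 among arrays numbered 8 or higher.

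Among markers of neurons, the median differences were 0.04 for neurons in general (9 of 15 higher), 0.04 for forebrain excitatory neurons (7 of 13), 0.08 for interneurons (11 of 14), 0.12 for striatal (9 of 10), -0.03 for thalamic (3 of 10), 0.0017 for cerebellar (6 of 11) and 0.06 for hypothalamic neurons (7 of 13). For other cells they were -0.01 for astrocytes (7 of 15), -0.06 for oligodendrocytes (5 of 12), -0.10 for their precursors (4 of 9), -0.05 for microglia (6 of 14), -0.02 for endothelium and pericytes (6 of 14), -0.10 for blood (1 of 5) and 0.21 for pituitary (6 of 7). The mean level of the 15 neuron markers ranged from 9.59 to 10.79 in sleep-deprived and from 9.09 to 10.55 in control arrays, and that of the 15 astrocyte markers from 8.09 to 8.64 in sleep-deprived and from 8.04 to 8.55 in control arrays. Choroid plexus markers had 1 of 8 higher and a median of -0.22, at mean levels of 5.21 to 5.86 in sleep-deprived and 5.35 to 6.26 in control arrays. Members under 0.05 pointed both ways in astrocytes, with Gjb6 at 0.53 ± 0.24 and Sox9 at -0.57 ± 0.26, and in oligodendrocytes, with Mobp at 0.67 ± 0.31 and Fa2h lower. Among arrays numbered 8 or higher Mobp differed by 0.16 and Gjb6 by 0.23. Abcc9, a pericyte channel subunit, measured 4.04, 5.95 and 7.70 in sleep-deprived pull-downs, against 3.41, 4.27 and 5.09 in controls, and its difference of 1.53 ± 0.50 was 0.75 without the 4 arrays numbered 4 or lower.

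**Figure D4:**
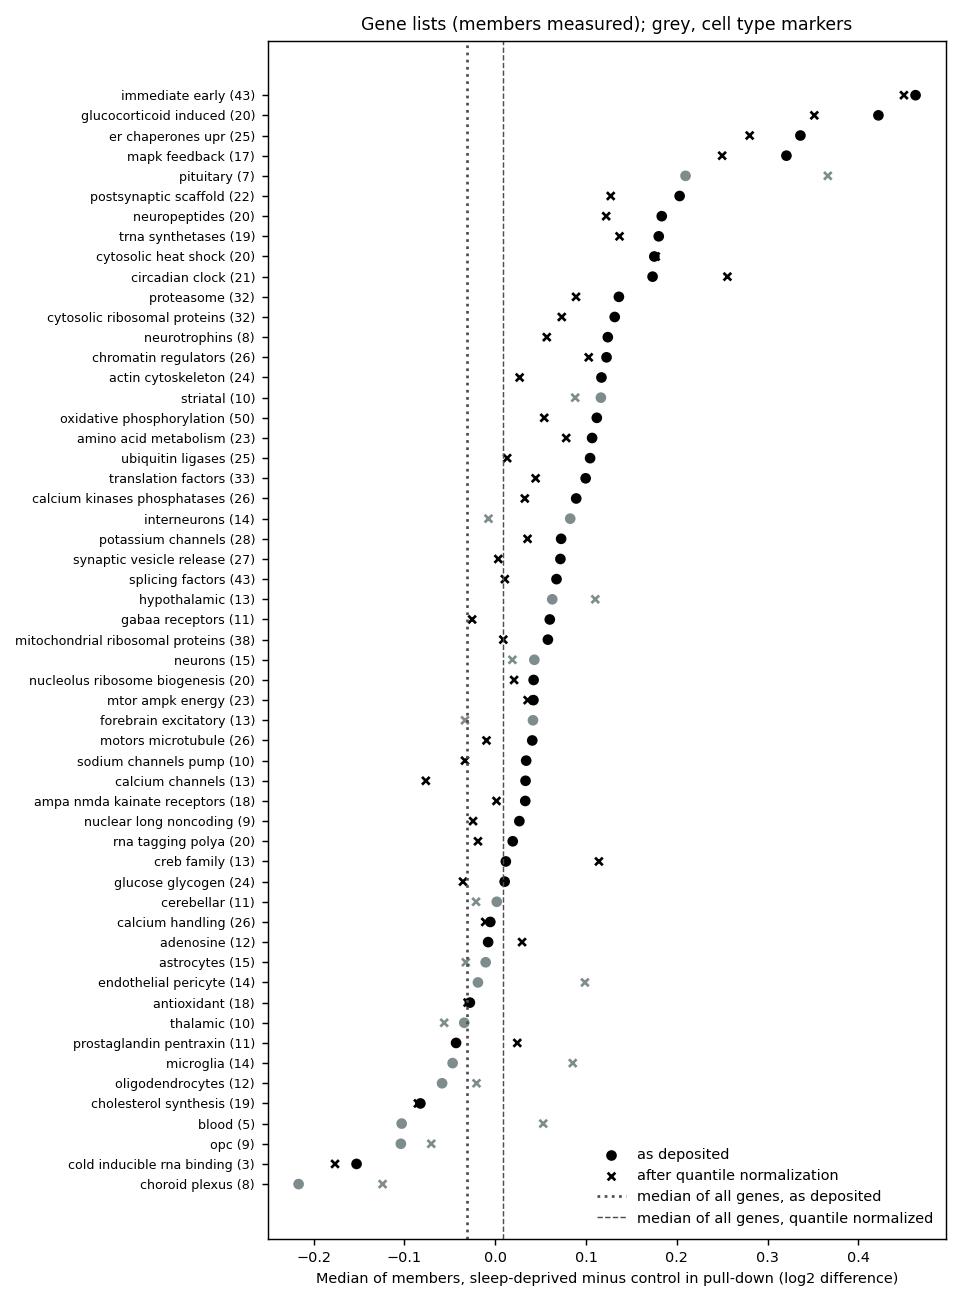
Median sleep-deprived minus control difference (log2) over the members of each gene list in pull-down, as deposited (dots) and after quantile normalization (crosses); black, functional lists; grey, cell type markers; number of measured members in brackets; lines, medians of all genes. Immediate early genes are at 0.46, glucocorticoid-induced genes at 0.42, endoplasmic reticulum genes at 0.34 and MAP kinase feedback genes at 0.32, and all genes at -0.03 as deposited.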

How the data were processed

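Affymetrix mouse arrays of 24 extracts were used as deposited: a log2 intensity for each probe set on each array, which the authors made with RMA in the affy package, per the submitters' processing notes, with no version given. Of 45101 probe sets, 64 controls were left out. GEO's platform annotation gave 1 gene symbol for 34945 of the 45037 tested, several for 932 and none for 9160, for 18193 genes in all. Sleep-deprived minus control was tested on the 12 pull-down arrays with limma 3.58.1 in R 4.3.3, with no covariate or rescaling and Benjamini-Hochberg adjustment. The fit was checked on simulated data with planted differences and noise independent between probe sets. That check does not cover variation shared across an array. Per the series' design text, each pull-down group is 6 animals. Whole brain and the interaction between extracts were fitted alike. Array measures were compared by exact permutation. Alternatives were normalization, array weights, 18S and title number as terms, filters and left-out arrays. Named genes are, at 1 probe set per gene with 1 symbol, the 15 of smallest p in each direction, up to 4 members of smallest p per list (at most 2 where none was under 0.05), and all probe sets of Homer1, Ptgs2, Nptx2, Jph3 and Pabpc1. Members and lists were chosen with earlier results of these data known. Lists held 1011 matched genes.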

Additional observations from a re-analysis of the deposited data

Results flagged for a closer look

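In 16 of 198 groups of arrays examined, 1 array lay further from the others than Dixon's critical value allows, where about 9.9 would be by chance (1 in 20 groups). Control 11 accounted for 7 of the 16. It was lowest for Homer1 1436387_at (8.82, the others 9.85 to 10.28), Hsph1 (10.26, the others 11.51 to 11.64), Dnajb1 (8.80, the others 9.96 to 10.57), Xbp1 (5.80, the others 7.43 to 7.59), Kcnc2 (8.77, the others 9.90 to 10.31) and Smarca2 (8.97, the others 10.10 to 10.55) on the log2 scale, and its Gapdh 3′ minus 5′ difference was 3.29, the others 4.74 to 5.51. Among controls, Cys1 was 6.50 on number 4, Dnajc3 1449373_at 2.40 and Ebp 4.82 on number 9, and Homer1 1425710_a_at 7.51 and Sdhb 8.21 on number 3. Among sleep-deprived arrays, Bcl6 was 9.60 on number 6, Dusp6 8.67 and 2810032G03Rik 8.34 on number 3, and Homer1 1425710_a_at 8.27 on number 1.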

How the results depend on the processing

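Over all probe sets the count past an adjusted p of 0.05 was 0, and it was 2 with array weights (0 higher, 2 lower), 3 in 1 fit of all 24 arrays (2 and 1), 1 with the 18S signal as a covariate, and 0 to 1 when 1 array was left out (1 without control 8, where Egr2 had an adjusted p of 0.0202). It stayed at 0 with quantile normalization (smallest adjusted p 0.313), centring on the median, a filter on low levels, a trended robust fit, the title number as a term or within either range of numbers, and without the arrays of high 18S signal. Over enriched probe sets it was 0, and 7 with array weights (6 higher, 1 lower), 10 in the fit of 24 arrays (7 and 3), and 0 to 2 with 1 array left out (2 without control 8). Single genes past 0.05 were Homer1 1425671_at with the 18S covariate (0.0479), Egr2 and Spry4 in the fit of 24 arrays (0.0458 each), and Arsb with array weights (0.026) and in the fit of 24 arrays (0.0458). The interaction count was 0 in each setting run. The cause of these changes was not tested.

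The count at an unadjusted p under 0.05 was 430, and 1382 (822 higher, 560 lower) with quantile normalization, 732 (522 and 210) after centring, 3213 (827 and 2386) with array weights, 1403 (662 and 741) in the fit of 24 arrays, 1073 (535 and 538) with the 18S covariate, 754 (425 and 329) with the title number as a term, 865 (582 and 283) among numbers 7 or lower, 250 (97 and 153) among 8 or higher, and 279 to 954 with 1 array left out (279 without sleep-deprived 6, 282 without sleep-deprived 3, 688 without sleep-deprived 10, 669 without control 3 and 954 without control 4). Chosen after seeing the data, leaving out the 4 arrays numbered 4 or lower gave 795 (184 and 611), and the number term with quantile normalization 1622 (847 and 775).

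None of the 30 leading genes changed direction in any setting, and of 94 probe sets given by name 82 did not. Among arrays numbered 8 or higher, the difference turned to -0.047 for Rpl6, 0.094 for Ebp, -0.11 for Amph, 0.027 for Grik4, -0.10 for Chd4, -0.10 for Nptx2 1449960_at, -0.010 for Mars1, 0.019 for Dlg4, and -0.15 and 0.023 for Pabpc1 1418883_a_at and 1453840_at. Among numbers 7 or lower it turned to -0.45 for Jph3 1418161_at and to -0.28 and 0.37 for the Pabpc1 probe sets. With the number as a term it turned to -0.16 for Jph3 1418161_at and to -0.21 and 0.19 for Pabpc1, and with quantile normalization added to -0.072, -0.15 and 0.098, and to -0.14 for Nptx2 1449960_at. Array weights gave -0.14 for Pabpc1 1418883_a_at, and leaving out the high 18S arrays gave -0.011 for Grin2c. With 1 array left out, those that turned ranged from -0.11 to 0.65 for Jph3 1418161_at, from -0.18 to 0.32 for Pabpc1 1418883_a_at, from -0.47 to 0.20 for Pabpc1 1453840_at and from -0.035 to 0.11 for Nptx2 1449960_at. No paired analysis was possible because the groups share only 1 title number, 3.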
